A study of Pan troglodytes with 6 samples.

Results

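A set of 10 genes of heme, iron and globin handling was followed through cerebellum and liver of the chimpanzee (Pan troglodytes). The genes, listed by symbol, are HMOX1, HMOX2, HBB, ALAS1, BLVRA, BLVRB, TFRC, TFR2, FECH and NGB. A gene was taken where the array's annotation gave a feature that symbol and no other. All 10 were found, each on 1 feature, among 12584 genes with a symbol of their own and 15143 features in all. A further feature named HBB together with another gene and was not used. Total RNA of 3 cerebellum and 3 liver samples had been hybridised to exon arrays whose probes were designed on human genes, so probe mismatches can affect the level of one gene against another. In both tissues replicate 1 was labelled female, aged 27 years, and replicates 2 and 3 were labelled male, aged 37 and 30 years. The labels do not state whether 1 animal gave both tissues, and no treatment or genotype is given. The study's title names the profiling of closely related species, and the comparison these samples allow is that of the tissues.

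Heme is an iron-containing ring that is made in mitochondria and the cytosol and carried by hemoglobin, cytochromes and many enzymes. ALAS1 catalyses the first step of its synthesis outside red cell precursors, and FECH inserts the iron at the last step. Heme oxygenases (the inducible HMOX1 and the constitutive HMOX2) open the ring, and biliverdin reductases turn the product into bilirubin. TFRC takes up transferrin-bound iron, and TFR2 is known from hepatocytes, where it takes part in sensing iron. HBB is the adult beta chain of hemoglobin, and NGB encodes neuroglobin, a globin of neurons. The liver uses heme for cytochromes P450, and its macrophages recycle the heme of aged red cells.

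Of the 10 genes, 6 were higher in liver (TFR2, HMOX1, BLVRB, HBB, FECH and ALAS1), NGB was higher in cerebellum, and HMOX2, BLVRA and TFRC did not pass the test. Differences were taken on log2(intensity + 16.8), cerebellum minus liver, and tested with limma, with p values adjusted over all 15143 features by Benjamini-Hochberg and a threshold of 0.05. Adding 16.8 to each value makes the differences of dim genes smaller than they are on the raw scale. The 7 called genes compare with a background in which 50.6% of all features were called, 23.9% as higher in liver and 26.7% as higher in cerebellum. The share called toward liver was 60.0% of the 10 genes. The tissues did not overlap for 8 of the 10 genes, against 59.4% of all features. The median log2 difference was -1.63 over the 10 genes and 0.04 over all features. In such tissue samples, fewer cells of a type and less RNA per cell cannot be told apart.

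**Figure D1:**
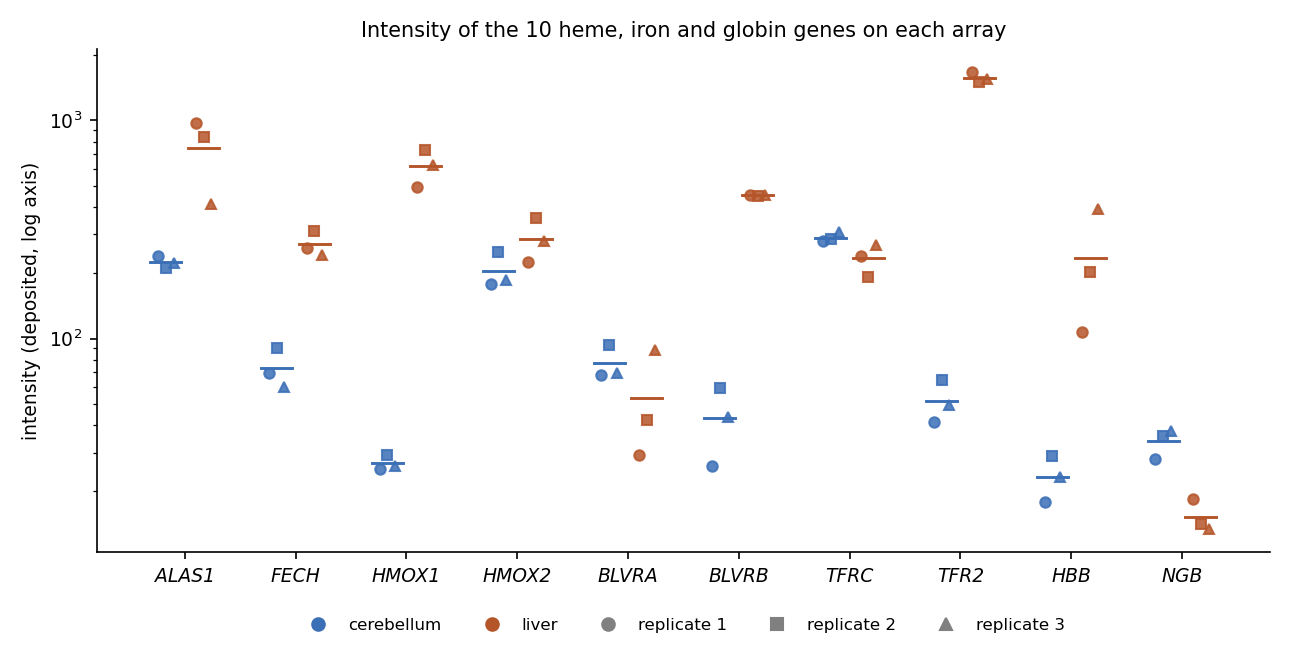
Deposited intensity (vertical log axis) of the 10 genes on each array, with cerebellum in blue, liver in orange, symbols for the replicates and a bar at the mean of each tissue. TFR2 and HMOX1 lie far higher in liver, at means of 1572 and 617 against 51.8 and 26.9 in cerebellum, while the tissues overlap for HMOX2 and BLVRA.

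The tissues were as labelled by their markers. All 8 measured neuronal markers were higher in cerebellum, with a summed intensity of 16960 to 18180 there and 227 to 321 in liver. All 5 measured hepatocyte markers were higher in liver, at 19450 to 21750 against 52.3 to 131. The 6 arrays hold the same set of values in different orders, so they cannot show a difference in total signal. When the arrays were instead aligned on 92 general genes (of ribosomes, the proteasome and mitochondrial respiration), the median log2 difference of all features moved from 0.04 to 0.51 and the share of calls toward cerebellum from 52.8% to 74.6%. All 6 calls toward liver among the 10 genes were kept under that alignment, which changed the call or direction of the 3 genes that did not pass, as given with each of them.

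Both ends of heme synthesis were higher in liver. ALAS1 stood at 238, 211 and 222 in cerebellum replicates 1 to 3 and at 975, 841 and 415 in liver replicates 1 to 3. The tissues did not overlap, and liver replicate 3 lay nearest to the cerebellum values. The means were 223 ± 13.8 and 743 ± 292 (SD, n = 3 here and below), and they differed by -1.58 ± 0.30 (SE) on the log2 scale (limma, adjusted p = 0.00242). Without liver replicate 3 the difference was -1.94 (adjusted p = 7.37e-05). FECH stood at 69.8, 90.8 and 59.7 in cerebellum and at 260, 313 and 241 in liver, so that each liver value exceeded each cerebellum value. Its log2 difference came to -1.68 ± 0.20 (SE; limma adjusted p = 1.44e-04), a 3.21-fold difference on that scale.

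Few of the other heme synthesis enzymes passed the test. Of 5 measured, 1 (20.0%) was higher in liver, beside 23.9% of all features, and 4 did not pass. The median log2 difference was -0.30, which turned to 0.17 under the general-gene alignment, where 2 passed toward cerebellum. The called enzyme was UROD, uroporphyrinogen decarboxylase, at 53.1 ± 8.74 in cerebellum and 165 ± 37.3 in liver (difference on the log2 scale -1.37, limma adjusted p = 5.89e-04). UROS, CPOX and PPOX, 3 further enzymes of the pathway, had log2 differences of 0.11, -0.30 and 0.40. ALAS2, the form of ALAS1 in red cell precursors, was dim in both tissues at 26.4 ± 3.73 and 37.2 ± 8.21 (log2 difference -0.31, limma adjusted p = 0.186). These 4 genes are named outside the rule for other genes.

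The 2 heme oxygenases parted. HMOX1 stood at 25.2, 29.4 and 26.0 in cerebellum and at 496, 730 and 625 in liver. The cerebellum values lay close together, brighter than 17.6% of features on average, while the liver values exceeded 93.6% of features. The log2 difference came to -3.85 ± 0.19 (SE; limma adjusted p = 1.06e-06), and it ran from -4.06 to -3.32 with smaller and larger pseudocounts. No call of detection was used here, so it is not known whether the dim signal of HMOX1 in cerebellum lies above background, and no fold is given. HMOX2 stood at 177, 250 and 186 in cerebellum and at 225, 356 and 280 in liver, and the highest cerebellum value exceeded the lowest liver value. Its log2 difference of -0.45 ± 0.22 (SE) did not pass (limma, adjusted p = 0.123), and it turned to 0.020 under the general-gene alignment (adjusted p = 0.941).

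Heme oxygenases draw electrons from cytochrome P450 reductase, POR. POR was listed with CYB5A and CYB5R3, and all 3 were higher in liver, beside 23.9% of all features. Their median log2 difference was -3.43. POR stood at 87.7 ± 30.5 in cerebellum and 1163 ± 92.0 in liver, a log2 difference of -3.54 (limma, adjusted p = 4.79e-06). CYB5A, which encodes cytochrome b5, and CYB5R3, its reductase, had log2 differences of -3.43 and -1.05. The call of CYB5R3 was lost under the general-gene alignment (-0.59, limma adjusted p = 0.0588, the highest over its alternatives, against 0.00263 at the lowest).

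The 2 biliverdin reductases also parted. BLVRB, which also reduces flavins, stood at 26.0, 59.3 and 43.7 in cerebellum and at 454, 451 and 456 in liver. Its liver values were the closest together of the 10 genes, with a log2 SD of 0.0086 against a median of 0.26 over all features, while its cerebellum values varied most of the 10, with a log2 SD of 0.42 against a median of 0.20. The log2 difference came to -3.02 ± 0.23 (SE; limma adjusted p = 1.06e-05), and it ran from -3.17 to -2.62 with smaller and larger pseudocounts. As for HMOX1, the cerebellum signal of BLVRB is dim, brighter than 27.0% of features, and no fold is given. BLVRA, the main reductase of adult biliverdin, stood at 67.9, 93.2 and 69.8 in cerebellum and at 29.2, 42.3 and 88.4 in liver. Liver replicates 1 and 2 lay below all cerebellum values, and liver replicate 3 lay among them. The log2 difference of 0.50 ± 0.30 (SE) did not pass (limma, adjusted p = 0.200). Without liver replicate 3 it was 0.84 (adjusted p = 0.0122), and under the general-gene alignment it was 0.97 (adjusted p = 0.0195). Over all alternatives the adjusted p of BLVRA lay between 0.0122 and 0.508.

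Of the 2 transferrin receptors, TFR2 passed the test and TFRC did not. TFR2 stood at 41.5, 64.2 and 49.6 in cerebellum and at 1665, 1503 and 1549 in liver. In cerebellum it was brighter than 32.1% of features on average. Its log2 difference of -4.55 ± 0.18 (SE) was the largest of the 10 genes (limma, adjusted p = 3.91e-07), a 23.4-fold difference on that scale. The fold depends on the pseudocount, since the log2 difference ran from -4.69 to -4.17 with smaller and larger ones. TFRC stood at 279, 285 and 307 in cerebellum and at 240, 191 and 268 in liver. Each cerebellum value exceeded each liver value, but the gap was small and the log2 difference of 0.31 ± 0.18 (SE) did not pass (limma, adjusted p = 0.187). With arrays aligned on the general genes it was 0.78 and passed (adjusted p = 0.0213), the lowest p over its alternatives, of which the highest was 0.465.

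**Figure D2:**
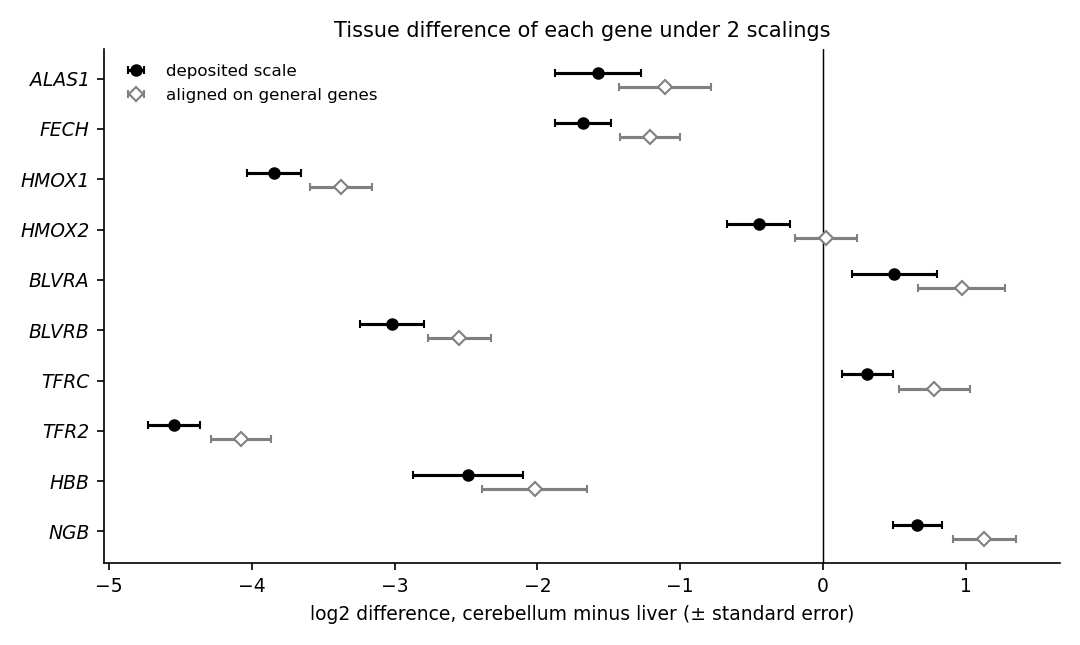
Log2 difference (horizontal axis, cerebellum minus liver) of the 10 genes with its standard error, on the deposited scale (filled circles) and with arrays aligned on general genes (open diamonds). TFR2 at -4.55 and HMOX1 at -3.85 lie farthest toward liver, and HMOX2 moves from -0.45 to 0.020 under the alignment.

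The globins went in opposite directions. HBB stood at 17.8, 28.9 and 23.1 in cerebellum and at 107, 202 and 393 in liver. The tissues did not overlap, and the liver values spanned 3.67-fold, the widest range of the 10 genes in either tissue. The log2 difference came to -2.49 ± 0.39 (SE; limma adjusted p = 7.76e-04). It was -2.05 without liver replicate 3 (adjusted p = 5.65e-04) and -2.91 without liver replicate 1 (adjusted p = 2.07e-04). As for HMOX1, the cerebellum signal is dim, brighter than 14.9% of features, and no fold is given. The sequence of HBB is close to that of other beta-like globins, so its feature can share signal with them. NGB stood at 27.9, 35.8 and 37.8 in cerebellum and at 18.3, 14.2 and 13.3 in liver. It was dim in both tissues, brighter than 22.2% of features in cerebellum and 8.83% in liver. Its log2 difference came to 0.66 ± 0.17 (SE; limma adjusted p = 0.0114). That call was lost without cerebellum replicate 3 (0.60, adjusted p = 0.0579, the highest over its alternatives, against 0.00161 at the lowest).

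Markers of red cells and their precursors were called in both directions. Of 14 such genes 8 were measured, of which 1 was higher in liver and 2 in cerebellum, beside 23.9% and 26.7% of all features. None lay at or below 0 on all arrays of a tissue. Their summed intensity was 539 to 649 in cerebellum and 356 to 490 in liver. The higher cerebellum sum rested on 1 gene. It was ANK1, an ankyrin of the red cell membrane that neurons also express, at 253, 264 and 269 in cerebellum against 12.3, 10.6 and 7.36 in liver, which is named after its values were seen. Without ANK1, an alternative chosen after seeing the data, the sums of the other 7 were 310, 386 and 270 in cerebellum and 344, 480 and 396 in liver, so the mean turned toward liver and the tissues overlapped. RHAG, a red cell membrane channel, was the marker called toward liver, at 75.9, 104 and 48.1 in cerebellum and 99.9, 248 and 211 in liver, where the tissues overlapped, and it too is named after its values were seen. AHSP, the chaperone of alpha globin, stood at 21.3 ± 4.31 in cerebellum and 34.1 ± 10.2 in liver (difference on the log2 scale -0.40, limma adjusted p = 0.133). Myoglobin, MB, was at 7.91 ± 1.63 and 7.02 ± 3.78 (log2 difference 0.06, limma adjusted p = 0.797). AHSP and MB were the measured genes of the globin list, 2 of 12, and the alpha globins were not analysed here. The part of blood in the HBB difference was not tested.

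Within an array, the ratio of paired genes showed how unequal these differences were. The log2 ratio of HMOX1 over HMOX2 was -2.21, -2.53 and -2.24 in cerebellum and 1.09, 1.01 and 1.11 in liver, a tissue difference of -3.40. BLVRA over BLVRB was 0.99, 0.53 and 0.52 against -3.36, -2.98 and -2.17, a tissue difference of 3.52. TFRC over TFR2 was 2.34, 1.90 and 2.28 against -2.71, -2.87 and -2.46, a tissue difference of 4.86. The tissues did not overlap for any of these 3 pairs. HBB over NGB was -0.37, -0.21 and -0.45 in cerebellum and in liver 1.82, 2.82 and 3.77, a tissue difference of -3.15. ALAS1 over FECH was 1.56, 1.08 and 1.64 in cerebellum and 1.84, 1.38 and 0.74 in liver, so the tissues overlapped, with a difference of 0.11 that turned to -0.18 without liver replicate 3 and to -0.0015 without cerebellum replicate 3. An exact permutation test over 3 against 3 arrays, two-sided, gave p = 0.1 for each of the first 4 pairs, the smallest it allows, and p = 0.8 for the last. Adjusted over the 5 pairs these were 0.125 and 0.8, so none passed. The zero of each ratio has no meaning, since the level of one feature cannot be set against that of another.

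**Figure D3:**
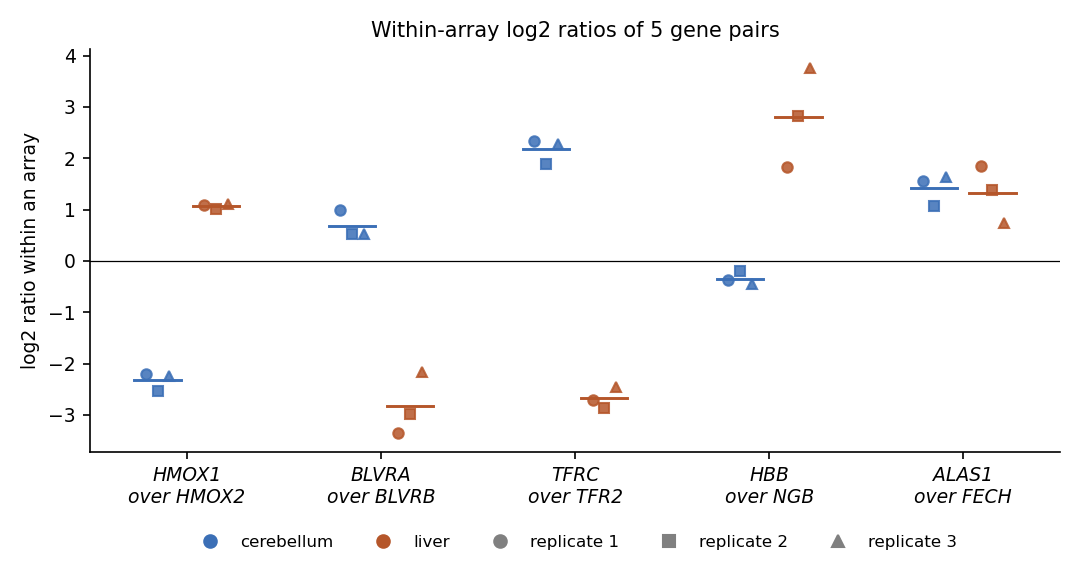
Log2 ratio within an array (vertical axis) for 5 gene pairs, with cerebellum in blue, liver in orange, symbols for the replicates and a bar at the mean of each tissue. For the first 4 pairs the tissues lie apart, by 4.86 for TFRC over TFR2, and for ALAS1 over FECH they overlap.

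In cerebellum, most of the 10 genes were lowest in replicate 1 and highest in replicate 2. Replicate 2 was the highest of the 3 arrays for 7 genes and replicate 1 the lowest for 8, whereas over all features replicate 2 was highest for 39.2% and replicate 1 lowest for 32.7%, with replicate 2 lowest for 40.3%. Set against replicates 1 and 3, replicate 2 lay at 0.58 for BLVRB, 0.43 for HMOX2, 0.40 for FECH and 0.38 for TFR2 on the log2 scale, as the difference from their mean. It lay at 0.36 for BLVRA, 0.30 for HBB, 0.12 for HMOX1 and 0.09 for NGB, but at -0.04 for TFRC and -0.12 for ALAS1. On the same array the medians of macrophage, hepatocyte and endothelial markers lay at 0.54, 0.38 and 0.33. Those of stellate cell and fibroblast, neuron, red cell and neutrophil markers lay at 0.27, 0.24, 0.07 and -0.04. The hepatocyte markers were dim in cerebellum, summing to 52.3 to 131 there. The part of these cell types in the values of the 10 genes was not tested.

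In liver, HBB, ALAS1 and BLVRA varied most, with log2 SDs of 0.86, 0.64 and 0.61, larger than those of 97.1%, 92.8% and 91.7% of features. Replicate 3 was the highest of the livers for HBB and BLVRA and the lowest for ALAS1. Set against the mean of replicates 1 and 2 it lay at 1.32 for HBB and 1.01 for BLVRA, but at -1.09 for ALAS1. For HBB replicate 1 lay as far out on the other side, at -1.27, so that the 3 livers were about evenly spaced on that scale. HMOX1, HMOX2, BLVRB and TFR2 lay between -0.03 and 0.05 in replicate 3, TFRC at 0.31, NGB at -0.13 and FECH at -0.23. On the array of replicate 3 the medians of markers of stellate cells and fibroblasts, macrophages and endothelium lay at 1.66, 0.92 and 0.52, that of hepatocyte markers at -0.11, that of red cell markers at -0.13 and that of neutrophil markers at -0.46. The 10 measured macrophage markers, of 12 listed, were all higher in liver, summing to 9717 in liver replicate 3, 5496 and 5417 in the other livers and 344 to 673 in cerebellum. The 6 measured stellate cell and fibroblast markers, of 7, were also all higher in liver, at 4126 against 1420 and 1343, and 221 to 605 in cerebellum. For the other lists, 5 of 7 endothelial markers and 3 of 5 neutrophil markers were higher in liver, beside 23.9% of all features. No marker of these lists lay at or below 0 on all arrays of a tissue. The part of these cell types in the values of HBB, ALAS1, BLVRA and HMOX1 was not tested.

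**Figure D4:**
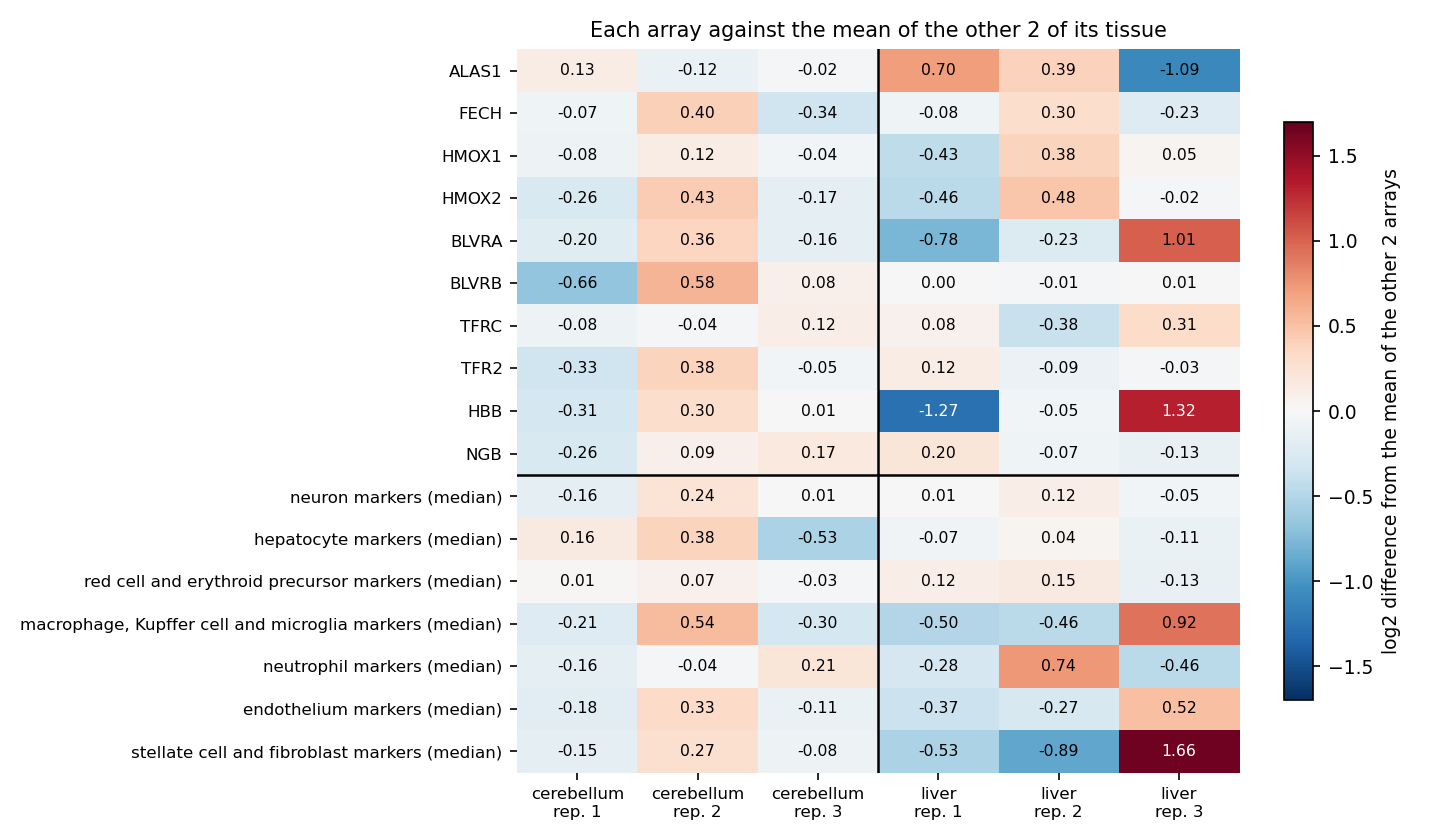
Log2 difference of each array from the mean of the other 2 arrays of its tissue, for the 10 genes (above the line) and as the median of each marker list (below it), red for higher and blue for lower. Liver replicate 3 is high for HBB at 1.32 and BLVRA at 1.01, low for ALAS1 at -1.09, and high for stellate cell and fibroblast markers at 1.66.

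More of the other genes of these pathways passed toward liver than toward cerebellum. Of 115 listed symbols, older ones included, 70 were measured and 15 stood only on features with several symbols and were not used. Of the 70, 37 (52.9%) passed toward liver and 10 (14.3%) toward cerebellum, beside 23.9% and 26.7% of all features. Their median log2 difference was -0.76. Under the general-gene alignment 26 passed toward liver and 15 toward cerebellum, with a median of -0.29. Leaving out a single array took the count toward cerebellum from 10 to 5 without cerebellum replicate 1 or liver replicate 2, and to 6 without cerebellum replicate 3.

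Of 7 listed genes for proteins that bind heme or hemoglobin in plasma, or clear them, 5 were measured. All 5 were higher in liver, beside 23.9% of all features, with a median log2 difference of -5.88. Under the general-gene alignment 4 of the 5 passed toward liver. HPX, hemopexin, which binds free heme, stood at 43.4, 40.2 and 31.8 in cerebellum and at 4700, 4537 and 4040 in liver (difference on the log2 scale -6.33, limma adjusted p = 1.51e-07). AMBP, the precursor of the heme-binding alpha-1-microglobulin, and ALB, albumin and also one of the hepatocyte markers here, differed by -5.88 and -6.24. CD163, the hemoglobin-haptoglobin receptor of macrophages and also one of their markers here, differed by -4.26, and LRP1, a receptor for the heme-hemopexin complex, by -0.70. These last 2 are named outside the rule. HPX, AMBP and ALB are plasma proteins that hepatocytes secrete.

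Carriers of heme and of mitochondrial iron went both ways. Of 11 measured, 7 (63.6%) were higher in liver and 2 (18.2%) in cerebellum, beside 23.9% and 26.7% of all features. Their median was -1.03. The 2 FLVCR genes, membrane transporters linked to heme, were called in opposite directions. FLVCR1, a heme exporter, stood at 145 ± 4.88 in cerebellum and 53.5 ± 28.2 in liver (difference on the log2 scale 1.28, limma adjusted p = 0.00444). FLVCR2 stood at 13.2 ± 2.67 and 285 ± 70.1 (-3.31, adjusted p = 4.81e-06). SLC25A39, a mitochondrial carrier, and HEBP1, a heme-binding protein, were higher in liver by -1.91 and -1.71. SLC48A1, which moves heme out of endosomes, was higher in cerebellum by 0.48 (limma, adjusted p = 0.0337). Its call was lost without any 1 of the 3 cerebellum arrays, without liver replicate 1 or 2, and with the replicate number as a block (log2 differences of 0.42 to 0.52, adjusted p from 0.0539 to 0.115, against 0.00362 at the lowest over its alternatives).

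Iron uptake, storage and export genes that passed were higher in liver on the deposited scale. Of 17 measured, 10 (58.8%) were higher in liver, beside 23.9% of all features, and 7 did not pass, with a median of -1.12. Under the general-gene alignment 9 were higher in liver and 3 in cerebellum. CP, the plasma ferroxidase ceruloplasmin, SLC40A1, the iron exporter ferroportin, and STEAP4, a metalloreductase, had log2 differences of -5.66, -4.68 and -4.04. In cerebellum CP varied, at 21.8, 86.8 and 16.8. STEAP4 stood there at 5.93, 6.02 and 2.21, below the added 16.8. Its difference ran from -4.54 to -3.13 with smaller and larger pseudocounts. SLC40A1 stood at 29.1, 39.9 and 22.4 in cerebellum and at 1091, 1118 and 1332 in liver. FTL, the ferritin light chain, is named after its values were seen because it met the top of the scale. It has 2 features, of which the brighter was used, at 1920, 2473 and 1250 in cerebellum and at 5922, 6527 and 6527 in liver, and 6527 is the highest value on each array, so its difference of -1.79 (limma, adjusted p = 4.31e-04) rests on values at the top of the scale.

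Among genes that sense iron, 6 of 12 (50%) were higher in liver and 4 (33.3%) in cerebellum, beside 23.9% and 26.7% of all features. Their median was -0.80. Under the general-gene alignment 5 were higher in liver and 4 in cerebellum, with a median of -0.33. HAMP encodes hepcidin, the hormone that closes ferroportin, and stood at 43.8, 43.0 and 41.9 in cerebellum and at 2903, 2426 and 315 in liver. Its lowest liver value was again that of replicate 3, and its log2 difference was -4.48 (limma, adjusted p = 8.99e-04), or -5.48 without that array and -3.92 and -4.05 without liver replicate 1 or 2. TMPRSS6, a protease that lowers hepcidin, and EPAS1, the hypoxia factor HIF-2 alpha, were higher in liver by -3.77 and -2.80. FBXL5, a ubiquitin ligase subunit that senses iron, stood at 1325 ± 168 in cerebellum and 539 ± 29.1 in liver (difference on the log2 scale 1.27, limma adjusted p = 3.45e-04). SMAD4, a mediator of BMP signalling to HAMP, and NEO1, a receptor linked to that signalling, were higher in cerebellum by 0.76 and 0.71. The call of NEO1 (limma, adjusted p = 0.0228) was lost without cerebellum replicate 1 or 3 and without liver replicate 1 or 2 (log2 differences of 0.59 to 0.67, adjusted p from 0.0654 to 0.0802, against 0.00397 at the lowest over its alternatives).

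Iron-sulfur cluster genes and regulators showed fewer or mixed calls. Of 6 measured cluster assembly genes, 2 (33.3%) were higher in liver, beside 23.9% of all features, and 4 did not pass. The median was -0.19 and turned to 0.28 under the general-gene alignment. The 2 called genes were LYRM4, a partner of the cysteine desulfurase, at -0.78 and CIAO1, of the cytosolic machinery, at -0.57. Both calls were lost under the general-gene alignment (-0.31 and -0.099), that of LYRM4 also without cerebellum replicate 2 or 3 or liver replicate 2 (-0.81 to -0.68), and that of CIAO1 also without cerebellum replicate 1 or 3 or liver replicate 2 (-0.56 to -0.46). Over their alternatives the limma adjusted p lay between 0.00637 and 0.363 for LYRM4 and between 0.0168 and 0.692 for CIAO1.

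Of 9 measured regulators of heme genes, 3 (33.3%) were higher in liver and 4 (44.4%) in cerebellum, beside 23.9% and 26.7% of all features. Their median was -0.28 and turned to 0.19 under the general-gene alignment. NR1D2, a heme-binding nuclear receptor of the circadian clock, and HIF1A, a hypoxia factor that induces HMOX1, were higher in cerebellum by 1.78 and 1.43. FOXO1, an activator of ALAS1 in liver, was higher in liver by -1.50 (limma, adjusted p = 0.00137). PPARGC1A, the coactivator of ALAS1 in fasting, was called as higher in liver by -1.53 (limma, adjusted p = 0.0458), although its liver values of 439, 625 and 111 overlapped those of 69.3, 151 and 92.2 in cerebellum. Its liver replicate 3 was low, as was that of ALAS1, while FOXO1 stood at 227, 277.5 and 252.7 in liver replicates 1 to 3. A link between these genes was not tested. The call of PPARGC1A was lost in 7 of 13 alternatives, among them without any 1 of the cerebellum arrays or liver replicate 1 or 2 (-1.79 to -1.06). Over the 13 its limma adjusted p was up to 0.158, and down to 7.24e-04 without liver replicate 3. MAFF, a small Maf protein, was higher in liver by -0.90 (limma, adjusted p = 0.0126) and lost its call without cerebellum replicate 3 or liver replicate 2 (-0.85 and -0.80) and with the alignment on general genes (-0.43). Over its alternatives the adjusted p of MAFF lay between 0.00141 and 0.180. KLF1, an erythroid factor, was higher in cerebellum by 0.87 (limma, adjusted p = 0.0298) and lost its call when liver replicate 2 or 3 or cerebellum replicate 1 or 2 was left out (0.64 to 0.95, adjusted p from 0.0540 to 0.107, against 0.00232 at the lowest).

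**Figure D5:**
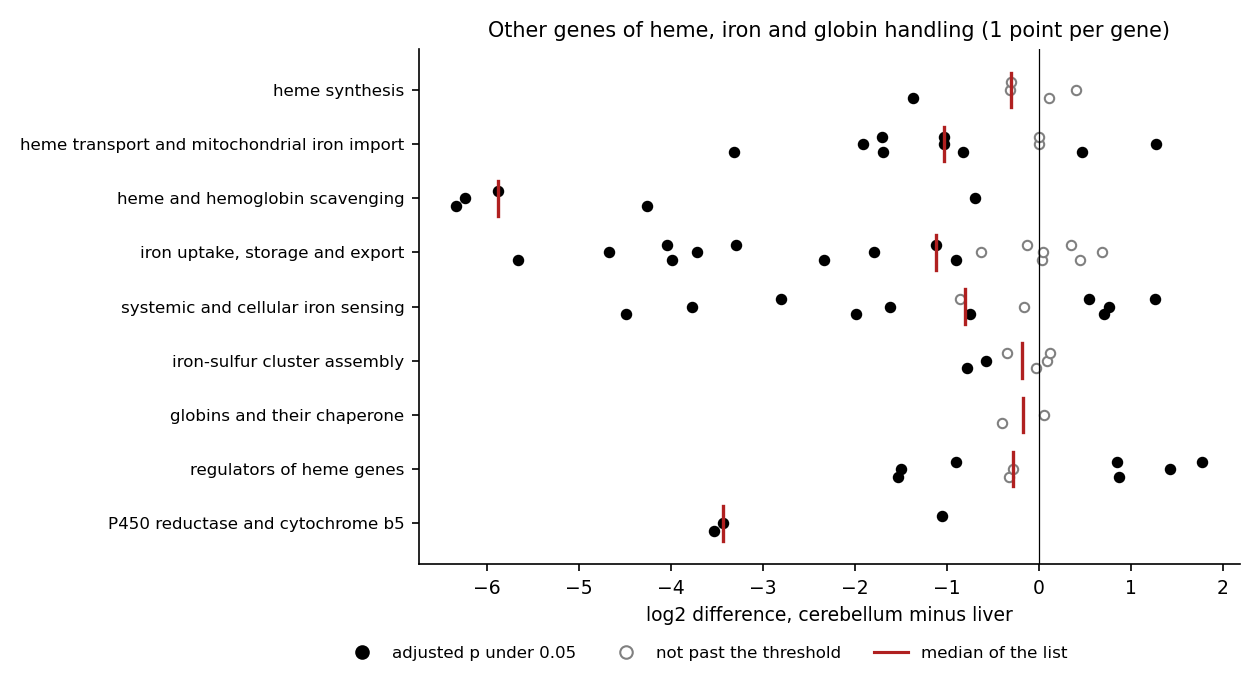
Log2 difference (horizontal axis, cerebellum minus liver) of the 70 other genes of heme, iron and globin handling, by list, filled where the limma adjusted p passed 0.05 and open where it did not, with a red bar at the median of each list. Heme and hemoglobin scavenging lies farthest toward liver with a median of -5.88, and the lists of iron sensing and regulators hold calls on both sides.

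The genes whose pattern over the 6 arrays lay nearest to each of the 10 were found by the root mean square distance between log2 values, each gene centred on its own mean, as a description. For HMOX1 they were RND3 (distance 0.094) and PXDC1 (0.095), for HMOX2 LRATD1 (0.039) and CCDC25 (0.049), and for HBB PTGIS (0.12) and EHD4 (0.13). PTGIS stood at 110, 207 and 324 in liver, following the order of HBB among the 3 livers. For ALAS1 they were SC5D (0.089), an enzyme of cholesterol synthesis, and ETFDH (0.12), of mitochondrial electron transfer. SC5D stood at 1927, 2013 and 895 in liver, with replicate 3 low as for ALAS1. For BLVRA they were LEPROTL1 (0.087) and HMGN4 (0.098), for BLVRB TENT5A (0.15) and PEPD (0.16), and for TFRC BCAR1 (0.047) and NUB1 (0.055). For TFR2 they were MPZL2 (0.12) and MTTP (0.14), which loads lipid onto lipoproteins, for FECH UXT (0.041) and CYP20A1 (0.083), and for NGB RSRC1 (0.052) and FXR2 (0.064).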

How the data were processed

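The authors deposited 1 linear intensity per feature and array, which the submitters' processing notes credit to GCOS without a version. The background correction, the choice of probes and their summary into features were each not given in the sources used here, and no build is named. The authors' deposited intensities are equal at every sorted position across the 6 arrays, as after quantile normalization, and 93 values per array lie below 0. The number of arrays limits the precision. Such a table can hide a difference in total signal between tissues.

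Values below 0 were set to 0 and log2(intensity + 16.8) was taken, 16.8 being the 10th percentile of all values. All 15143 features were fitted with limma 3.58.1 (lmFit, eBayes, two-sided) in R 4.3.3 with tissue alone, and adjusted by Benjamini-Hochberg. The fit was run on simulated data with independent noise and far fewer changed features than were called here. That run does not show the error rate of the fit in these data. Symbols come from the platform annotation, and the brightest feature was kept where several shared one. Pair ratios were tested by exact permutation with scipy 1.17.1.

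The 10 genes and the lists of other genes and markers were chosen with earlier results of these data known. Named other genes were up to 3 called genes with the largest difference per list and direction, and the 2 nearest patterns of each of the 10. Alternatives were 2 pseudocounts (10.2 and 38.3, the 5th and 25th percentiles), a filter on dim features, a replicate block, repeated quantile normalization, alignment on general genes, a variance trend and leaving out each array, with the red cell marker sum also taken without ANK1. No gene sequences were used here.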

Additional observations from a re-analysis of the deposited data

How the results depend on the processing

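Each alternative was set against the fit above. Of the 10 genes, 6 kept direction and side of the threshold in all 13 alternatives: HMOX1, HBB, ALAS1, BLVRB, TFR2 and FECH, with log2 differences of -4.06 to -3.32, -2.91 to -2.01, -1.94 to -1.11, -3.21 to -2.55, -4.69 to -4.08 and -1.82 to -1.21. The count toward liver was 6 in each. The count toward cerebellum, 1 as reported, was 0 without dim features, since that filter takes out NGB, 3 with arrays aligned on general genes, and 0 to 2 when 1 array was left out. Under that alignment 6287 features were higher in cerebellum and 2144 in liver, in place of 4045 and 3617, and the difference of HMOX2 turned from -0.45 to 0.020, by construction, since the alignment moves all differences toward cerebellum. The tissue difference of ALAS1 over FECH was -0.025 at a pseudocount of 38.3 and -0.18 to 0.37 with 1 array left out, and those of the other 4 pairs kept their direction. Of the other pathway genes, 5 to 9 were higher in cerebellum with 1 array left out, against 10, and under the alignment 15 were higher in cerebellum and 26 in liver, against 10 and 37. For the counts with 1 array left out the cause was not tested. Of the 29 named ones, 8 lost their call in some setting. With the replicate block 3994 and 3538 features passed, and 1 and 6 of the 10 genes. Same-numbered samples deviated together with r = 0.112, 0.164 and -0.144, and differently numbered ones with r from -0.253 to 0.239. These values cannot tell whether 1 animal gave both tissues. None of the 10 genes had a second feature of its own, so for them the dimmer feature could not be tried. NGB in both tissues, and HMOX1, HBB and BLVRB in cerebellum, lie toward the array's lowest signals, where signal over background limits the comparison.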
